A study of Homo sapiens with 6 samples.

Results

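Cathepsins are the main proteases of the lysosome, and 10 of their genes were followed here in 21NT cells: *CTSA*, *CTSB*, *CTSC*, *CTSD*, *CTSF*, *CTSH*, *CTSK*, *CTSO*, *CTSS* and *CTSZ*. They were taken by gene symbol, whatever their level, from the 20824 genes in the deposited table, and all 10 had a row. 21NT is an established human breast line used as a model of ductal carcinoma in situ. It had been stably transfected with the plasmid pcDNA3.1 that carried no insert (EV), TBX3iso1 or TBX3iso2, the isoforms of the T-box transcription factor TBX3. All 3 lines grew under G418 selection, in medium with serum, insulin, EGF and hydrocortisone, so the controls share the vector, the drug and the hormones. Each line was a pool of resistant clones, with 1 line per construct, and its 2 libraries are replicates of that line. The sources do not say whether the libraries came from separate cultures, so the SDs and p-values below may measure technical spread.

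Cathepsins are made as inactive precursors, tagged with mannose 6-phosphate in the Golgi, carried to the endosome and lysosome by sorting receptors, and activated there at acidic pH. *CTSD* encodes an aspartic protease and *CTSA* a serine carboxypeptidase, while the others of the set are cysteine proteases related to papain. In breast cancer cells cathepsins can also be secreted, where they act on matrix and on other proteases, and cystatins are their natural inhibitors.

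The values are RPKM, reads per kilobase of transcript for the depth of each library, so levels can be compared between genes. The libraries held between 43176600 and 54512400 alignments. A gene is called higher or lower here at a limma adjusted p (Benjamini-Hochberg, over all genes tested) under 0.05 together with a fold change over 1.5, in a fit on log2(RPKM + 0.1) of the 12805 genes whose mean reached 0.5 RPKM. Fold changes on that scale understate those of genes near 0.1 RPKM. Total *TBX3* was 8.24 to 8.52 RPKM in EV, 11.4 to 13.1 RPKM in TBX3iso1 and 15.5 to 17.5 RPKM in TBX3iso2 libraries, and the table does not separate its isoforms. With TBX3iso1 its log2 fold change of 0.54 (limma adjusted p = 0.00378) was under the fold threshold. With TBX3iso2 it was called higher (0.97, limma adjusted p = 0.000257). The 9 epithelial markers examined were present in every library, but some moved. *KRT5* was called higher with both isoforms (1.20 and 1.25 on the log2 scale). *CDH1* was called lower with TBX3iso1 (-0.70), and *KRT19* (-0.72) and *GATA3* (-1.07) with TBX3iso2. *CDH1* with TBX3iso2 (-0.51) and *KRT19* with TBX3iso1 (-0.57) were also below EV, under the fold threshold. Between the isoform lines *GATA3* was called (-1.01), and *CDH1* and *KRT19* were not. *EPCAM*, *KRT8* and *KRT18* were not called. The part of the epithelial markers in the cathepsin values was not tested. The markers had a summed level of 2817 to 2911 RPKM in EV, 2372 to 2628 RPKM in TBX3iso1 and 2768 to 3141 RPKM in TBX3iso2 libraries.

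Promoters of cathepsins that fell are shown first, where they were at hand. Lysosomal genes are known to share a short element, TCACGTG, the core of the CLEAR element bound by TFEB and its relatives. Whether the element goes with a fall was not tested. RefSeq promoters (GRCh38.p14, 300 bases that span the annotated start) were at hand for 6 of the 10 genes, *CTSA*, *CTSC*, *CTSD*, *CTSF*, *CTSH* and *CTSZ*. TCACGTG, searched on both strands, was found in 3 of these 6, those of *CTSA*, *CTSD* and *CTSF*, against 3.82% of 27305 promoters of the same length. The shorter E-box CACGTG, which lies within TCACGTG, was in the same 3 promoters and in 7.43% of all promoters. The T-box core GGTGTGA was in 0 of the 6 and in 3.43% of all promoters. At that share, 0 of 6 is the likely result for any 6 promoters, so it does not decide whether these genes hold T-box elements. The T-box motif that the study reported in the gene *SNAI2* also differs from these letters, and this search would miss it. Below, capitals mark each CACGTG or TCACGTG and each sequence runs 5′ to 3′ on the strand of the gene. *CTSH* is shown as a gene that fell and holds none of these letters in the 300 bases. From chromatin immunoprecipitation arrays, the study listed *CTSH* among changed genes that both TBX3 isoforms bound at overlapping sites. Its list was of genes with a T-box element in those bound regions, which were not compared with the bases shown here.

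CTSD, chr11:1763878-1764177, minus strand: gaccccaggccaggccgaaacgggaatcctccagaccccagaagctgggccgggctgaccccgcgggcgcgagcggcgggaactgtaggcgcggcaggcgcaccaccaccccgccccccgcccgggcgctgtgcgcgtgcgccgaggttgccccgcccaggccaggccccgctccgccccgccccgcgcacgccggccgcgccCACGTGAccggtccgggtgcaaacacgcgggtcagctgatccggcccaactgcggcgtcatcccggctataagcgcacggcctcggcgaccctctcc

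CTSA, chr20:45891085-45891384, plus strand: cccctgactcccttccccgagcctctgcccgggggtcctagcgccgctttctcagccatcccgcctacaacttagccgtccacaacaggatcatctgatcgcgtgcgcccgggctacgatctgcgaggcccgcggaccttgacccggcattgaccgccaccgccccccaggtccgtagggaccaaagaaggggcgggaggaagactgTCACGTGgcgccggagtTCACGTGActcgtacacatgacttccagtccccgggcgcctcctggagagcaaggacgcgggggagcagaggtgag

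CTSF, chr11:66568557-66568856, minus strand: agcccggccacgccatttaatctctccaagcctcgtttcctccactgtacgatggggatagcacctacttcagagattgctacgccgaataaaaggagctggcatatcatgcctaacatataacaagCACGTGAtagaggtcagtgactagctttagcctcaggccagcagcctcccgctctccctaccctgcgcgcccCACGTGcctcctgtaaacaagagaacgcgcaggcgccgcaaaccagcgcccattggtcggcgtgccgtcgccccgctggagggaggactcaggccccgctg

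CTSH, chr15:78944997-78945296, minus strand: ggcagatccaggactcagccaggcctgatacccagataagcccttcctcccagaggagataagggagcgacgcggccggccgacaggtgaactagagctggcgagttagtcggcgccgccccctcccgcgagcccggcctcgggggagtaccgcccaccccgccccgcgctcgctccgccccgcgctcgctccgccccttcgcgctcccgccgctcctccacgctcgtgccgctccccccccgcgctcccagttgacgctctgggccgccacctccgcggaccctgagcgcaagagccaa

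In the *CTSA* promoter TCACGTG begins 43 and 26 bases before the start, and the second copy is also a match on the other strand, since an A follows it. In the *CTSD* promoter the CACGTG begins 47 bases before the start, and in that of *CTSF* there is a copy at 123 bases and an E-box without the outer T or A at 51 bases. In the other lists described below, TCACGTG was in 3 of 5 promoters of other lysosomal peptidases, 4 of 10 of sorting genes, 5 of 16 of lysosomal regulators, 4 of 14 of lysosomal membrane proteins, 3 of 12 of V-ATPase subunits and 3 of 20 of glycosidases, lipases, sulfatases and activators. It was in 0 of 4 promoters of other cathepsins, 0 of 2 of cystatins, 0 of 10 of MHC class II genes and 0 of 6 of granule proteases. These are matches of letters and not measured binding sites.

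In EV cells the cathepsins spanned from *CTSD* at 1124 ± 19.3 RPKM (SD, n = 2) to *CTSS* at 0.0532 ± 0.0259 RPKM. *CTSD* was the 14th most abundant of all genes in both EV libraries. *CTSZ* followed at 109 RPKM, then *CTSA* at 61.8 RPKM, *CTSC* at 31.2 RPKM, *CTSH* at 28.9 RPKM and *CTSB* at 17.8 RPKM. *CTSF* (3.96 RPKM), *CTSO* (3.08 RPKM) and *CTSK* (0.817 RPKM) were low. No neighbours in this order overlapped between their EV libraries. The order differed in the isoform lines. *CTSB* stood above *CTSH* in both, at 15.3 against 11.8 RPKM with TBX3iso1 and 12.9 against 10.7 RPKM with TBX3iso2. In TBX3iso2 cells *CTSC* (57.1 RPKM) also stood above *CTSA* (37.1 RPKM). *CTSO* (1.30 RPKM) and *CTSF* (1.25 RPKM) were there not distinguishable, since the *CTSF* libraries lay between those of *CTSO*.

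**Figure D1:**
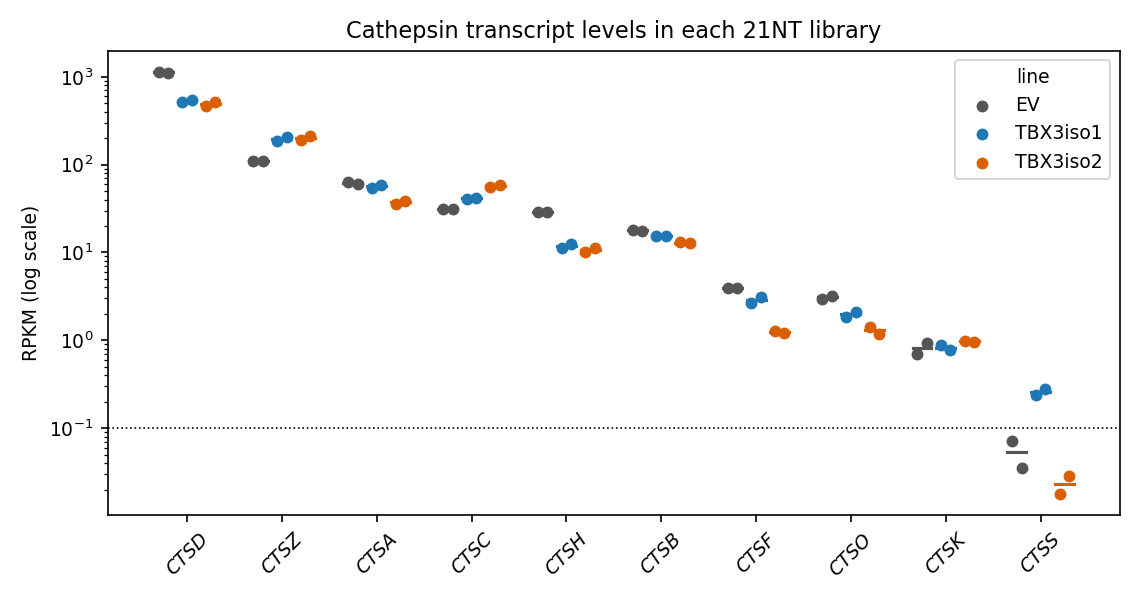
RPKM of the 10 cathepsins (log scale) in each library, ordered by their level in EV, with points for libraries and short lines for the mean of a line. The dotted line marks the 0.1 RPKM added before the log. *CTSD*, *CTSH*, *CTSF* and *CTSO* lie lower in both isoform lines than in EV, *CTSZ* and *CTSC* lie higher, and *CTSS* is above the dotted line only with TBX3iso1.

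The question put to these values was how the cathepsins of each isoform line differed from those of EV. Of the 10 genes 9 passed the filter on low values, and *CTSS* did not. With TBX3iso1, *CTSD*, *CTSH* and *CTSO* fell and *CTSZ* rose, 4 of 9 genes, where 21.5% of all genes tested were called (7.46% higher and 14.1% lower). Those were 955 higher and 1802 lower genes, a split that was 1263 and 1445 with median-ratio scaling and 1259 and 1313 with quantile normalization. With TBX3iso2, *CTSF*, *CTSH*, *CTSD*, *CTSO* and *CTSA* fell and *CTSZ* and *CTSC* rose, 7 of 9, where 21.2% of all genes were called (8.94% higher and 12.3% lower). The median log2 fold change of the 9 genes was -0.22 with TBX3iso1 and -0.74 with TBX3iso2, beside -0.05 and 0.00 for all genes tested. Both comparisons use the same EV libraries. In bulk RNA, less transcript in each cell and fewer cells that make it cannot be told apart.

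*CTSD* encodes cathepsin D, which degrades proteins in the lysosome, activates other precursors such as prosaposin, and is an old marker of breast cancer. Its GRCh37 position, as for the genes below, is chromosome 11, 1773982 to 1785803, minus strand. The EV libraries gave 1138 and 1111 RPKM, those of TBX3iso1 518 and 550 RPKM, and those of TBX3iso2 460 and 512 RPKM. All 4 isoform libraries were far below both EV libraries, and the ratio of the mean RPKM to that in EV was 0.475 with TBX3iso1 and 0.432 with TBX3iso2. On the log2 scale these were changes of -1.07 and -1.21 (standard error 0.116, limma adjusted p = 0.000343 and 0.000198). Between the isoforms the difference was -0.14 (95% interval -0.41 to 0.13, adjusted p = 0.472), less than could be told from the spread of the replicates. A gene model on the same strand, ENSG00000250644, shares 1304 exon bases with *CTSD*. The table used here has no row under that identifier, so how shared reads were assigned was not tested.

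*CTSH*, on chromosome 15 from 79213400 to 79241916, encodes cathepsin H, a lysosomal aminopeptidase. Its libraries held 28.6 and 29.1 RPKM in EV, 11.3 and 12.3 RPKM with TBX3iso1, and 10.1 and 11.4 RPKM with TBX3iso2. The EV values stood apart from the other 4, while the libraries of the isoforms overlapped each other. With log2 fold changes of -1.28 and -1.42 (standard error 0.0869, limma adjusted p = 4.37e-05 and 2.78e-05), *CTSH* had the largest fall of the set with TBX3iso1. The difference between the isoforms was -0.14 (95% interval -0.35 to 0.06, adjusted p = 0.31).

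*CTSF* encodes cathepsin F, a cysteine protease of the lysosome whose loss causes a neuronal storage disease, and lies on chromosome 11 from 66330935 to 66336350. It was 3.96 RPKM in both EV libraries, 2.68 and 3.12 RPKM with TBX3iso1, and 1.27 and 1.23 RPKM with TBX3iso2. The 3 lines did not overlap and TBX3iso2 was lowest, at 0.315 times the EV mean. The log2 fold change of -1.59 with TBX3iso2 was the largest of the set (standard error 0.117, limma adjusted p = 6.05e-05). With TBX3iso1 it was -0.44 (adjusted p = 0.0177), under the fold threshold. The direct comparison gave -1.15 for TBX3iso2 against TBX3iso1 (95% interval -1.42 to -0.88, limma adjusted p = 0.00123), so the isoform lines differed for this gene by more than the replicates. In a linear model without moderation on unlogged RPKM that last adjusted p was 0.0603.

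*CTSO* encodes cathepsin O, a little studied cysteine protease, on chromosome 4 from 156842732 to 156875064. The EV libraries were 2.94 and 3.21 RPKM, those of TBX3iso1 1.85 and 2.09 RPKM, and those of TBX3iso2 1.41 and 1.19 RPKM. Here too the lines did not overlap. The fall with TBX3iso2 was -1.19 on the log2 scale (standard error 0.134, limma adjusted p = 0.000401). That with TBX3iso1 was -0.62 (limma adjusted p = 0.00789), just past the fold threshold, and it no longer passed with 1 RPKM added before the log (-0.46), under median-ratio scaling (-0.54), with quantile normalization (-0.42), without the second EV library (-0.56, adjusted p = 0.0756) or without the first TBX3iso1 library (-0.54). The difference of -0.57 between the isoforms (limma adjusted p = 0.0295) fell just short of the fold threshold, which it passed under median-ratio scaling (-0.62), quantile normalization (-0.62), 0.01 RPKM added (-0.60) or without the first TBX3iso2 library (-0.68).

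*CTSA*, on chromosome 20 from 44518783 to 44527588, encodes cathepsin A, or protective protein, which holds beta-galactosidase (*GLB1*) and neuraminidase (*NEU1*) in a stable complex. Its libraries gave 62.7 and 60.9 RPKM in EV, 54.9 and 58.3 RPKM with TBX3iso1, and 36.0 and 38.2 RPKM with TBX3iso2. Those of TBX3iso2 were lowest, and the TBX3iso1 libraries lay just below EV. The log2 fold change was -0.74 with TBX3iso2 (standard error 0.0737, limma adjusted p = 0.000238) and -0.13 with TBX3iso1 (adjusted p = 0.191). The isoforms differed by -0.61 (limma adjusted p = 0.00269), barely past the fold threshold, and without the second TBX3iso1 library or the first TBX3iso2 library that value was -0.56 and under it. *NEU1* fell from 26.4 to 26.7 RPKM in EV to 15.7 to 17.5 RPKM with TBX3iso1 and 11.1 to 11.9 RPKM with TBX3iso2, while *GLB1* (log2 fold changes -0.36 and -0.48) was not called. The genes *NEURL2* and *PLTP* share 959 and 329 exon bases with *CTSA* on the opposite strand. *PLTP* was at most 0.0392 RPKM in any library, and *NEURL2* was at 0.28 to 1.04 RPKM.

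*CTSB* encodes cathepsin B, an endopeptidase and carboxydipeptidase much studied in tumour invasion, on chromosome 8 from 11700033 to 11727042. Its values were 17.9 and 17.8 RPKM in EV, 15.3 and 15.2 RPKM with TBX3iso1, and 13.0 and 12.7 RPKM with TBX3iso2. The replicates were close and the 3 lines did not overlap, but the differences were small. The log2 fold changes were -0.22 (limma adjusted p = 0.0328) and -0.47 (limma adjusted p = 0.00135), neither past the fold threshold, and the isoforms differed by -0.25 (adjusted p = 0.0517).

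The 2 genes that rose encode exopeptidases, but so do *CTSH*, which fell with both isoforms, and *CTSA*, which fell with TBX3iso2. *CTSZ*, on chromosome 20 from 57560741 to 57583293, encodes cathepsin Z (also called X), a carboxypeptidase. Its libraries were 110 and 109 RPKM in EV, 185 and 205 RPKM with TBX3iso1, and 193 and 211 RPKM with TBX3iso2. All isoform libraries were above EV and the isoforms overlapped each other. The ratio to the EV mean was 1.79 and 1.85, with log2 fold changes of 0.83 and 0.88 (standard error 0.0913, limma adjusted p = 0.000371 and 0.000267). The difference between the isoforms was 0.05 (95% interval -0.16 to 0.26, adjusted p = 0.76). *NELFCD*, the neighbour on the opposite strand, shares 6136 annotated exon bases with *CTSZ*, none of them in the main transcripts of either gene (the Ensembl canonical ones). *NELFCD* had log2 fold changes of 0.91 and 0.97, near those of *CTSZ*. The libraries were stranded, but the sources do not say whether strand was used in counting, and its part in the *CTSZ* values was not tested.

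*CTSC* encodes cathepsin C, or dipeptidyl peptidase 1, which activates the granule serine proteases of leukocytes, and lies on chromosome 11 from 87998237 to 88092852. It was 31.5 and 31.0 RPKM in EV, 40.8 and 41.9 RPKM with TBX3iso1, and 56.0 and 58.3 RPKM with TBX3iso2. The 3 lines were separate, with TBX3iso2 highest. With TBX3iso2 the log2 fold change was 0.87 (standard error 0.0678, limma adjusted p = 7.73e-05), a rise to 1.83 times the EV mean. With TBX3iso1 it was 0.40 (limma adjusted p = 0.00258) and with TBX3iso2 relative to TBX3iso1 0.47 (limma adjusted p = 0.00536), both under the fold threshold.

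*CTSK* and *CTSS* are neighbours on chromosome 1, from 150767356 to 150782053 and from 150702555 to 150738433. *CTSK*, the collagen-degrading cathepsin known from osteoclasts, was 0.699 and 0.934 RPKM in EV, 0.88 and 0.766 RPKM with TBX3iso1, and 0.981 and 0.962 RPKM with TBX3iso2. TBX3iso1 overlapped EV and TBX3iso2 was slightly above it. The log2 fold changes were 0.02 (95% interval -0.39 to 0.43, adjusted p = 0.941) and 0.24 (95% interval -0.17 to 0.64, adjusted p = 0.301), so a difference was not detectable within that spread.

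*CTSS* encodes cathepsin S, which cleaves the invariant chain of MHC class II in antigen-presenting cells. It was 0.0716 and 0.0349 RPKM in EV, 0.239 and 0.282 RPKM with TBX3iso1, and 0.0178 and 0.0283 RPKM with TBX3iso2. TBX3iso1 was the highest of the 3 lines, at 4.89 times the EV mean, yet all 6 values were low: with the longest annotated transcript (4074 bases) they come to roughly 6.1 to 15.9 alignments in EV, 49.6 to 57.8 with TBX3iso1 and 3.7 to 5.0 in TBX3iso2 libraries. In a fit that kept all genes with a value above 0 the log2 fold change with TBX3iso1 was 1.24 (limma adjusted p = 0.0069), and with TBX3iso2 -0.31 (adjusted p = 0.207). TBX3iso2 relative to TBX3iso1 was then -1.55 (limma adjusted p = 0.016), with an adjusted p of 0.0864 to 0.108 when any 1 of those 4 libraries was left out. Without the second TBX3iso1 library the TBX3iso1 value was 1.15 (adjusted p = 0.0598). The size depends on the 0.1 RPKM added, and with 1 RPKM added in its place (a choice made after seeing the data) it was 0.26.

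The cell types known for *CTSK* and *CTSS* were checked by their markers. Among 9 leukocyte markers with values, 4 to 6 were under 0.1 RPKM in each library, with *PTPRC* at 0 to 0.0102 RPKM and *AIF1* at 0 to 0.00518 RPKM. Their summed level of 76.8 to 81.7 RPKM in EV, 68.9 to 74.9 RPKM in TBX3iso1 and 67.7 to 72 RPKM in TBX3iso2 libraries came mostly from *LAPTM5*, which was not called. *CD14*, a macrophage marker, was 10.7 and 9.44 RPKM in EV, 2.22 and 2.60 RPKM with TBX3iso1, and 2.24 and 2.56 RPKM with TBX3iso2. It was thus lower in all 4 isoform libraries (log2 fold changes -2.02 and -2.03, limma adjusted p = 2.97e-05 and 2.85e-05), as *CTSD* and *CTSH* were, and its part in those results was not tested. *CSF1R*, another such marker, ranged from 1.21 to 1.89 RPKM and was not called. The 5 osteoclast markers summed to 1.74 to 1.94, 1.74 to 1.93 and 1.89 to 2.02 RPKM in the same order of lines, nearly all of it *TNFRSF11A* (1.56 to 1.72 RPKM, not called), with *CALCR* at most 0.0123 RPKM. The 7 fibroblast markers summed to 4.7 to 5.0, 8.18 to 8.81 and 7.18 to 7.61 RPKM in the same order, most of it *COL1A1*, and their part in the cathepsin values was not tested.

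**Figure D2:**
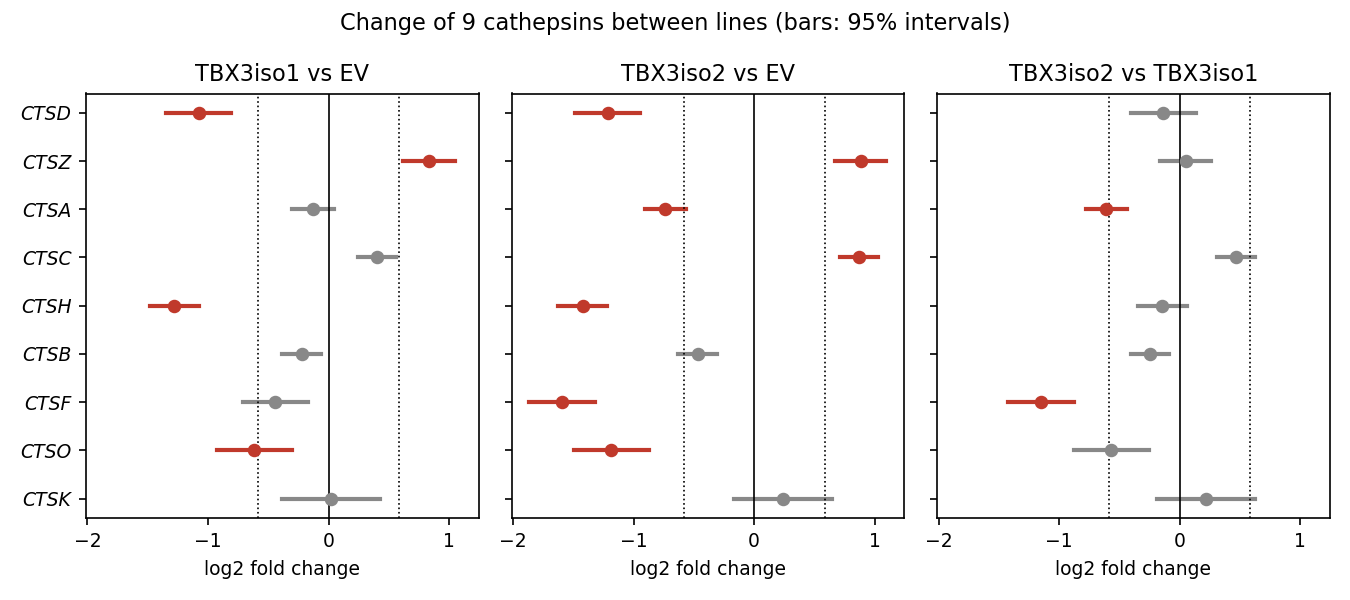
Log2 fold changes of the 9 cathepsins tested, with 95% intervals, for TBX3iso1 and TBX3iso2 against EV and for TBX3iso2 against TBX3iso1. Red marks a call and the dotted lines mark a fold change of 1.5. *CTSD*, *CTSH* and *CTSZ* are called with both isoforms and lie near 0 between them, whereas *CTSF* (-1.15) and *CTSA* (-0.61) are lower with TBX3iso2 than with TBX3iso1.

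Each isoform was carried by 1 line, and total *TBX3* was higher in the TBX3iso2 line (0.43 on the log2 scale, limma adjusted p = 0.0275). Isoform, line and *TBX3* level therefore cannot be told apart. In the direct comparison of the isoform lines 2 of 9 cathepsins were called, *CTSF* and *CTSA*, both lower with TBX3iso2. Of all genes tested 6.29% were called there, 3.47% higher and 2.82% lower, or 444 and 361 genes, which median-ratio scaling turned to 352 and 440 and quantile normalization to 351 and 435. The median of the 9 genes was -0.14, beside 0.05 for all genes. Without the second TBX3iso1 library only *CTSF* was called, and in a linear model without moderation on unlogged RPKM neither gene was, with adjusted p = 0.0531 for *CTSA*.

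Added over the 10 genes, EV cells held 1381 ± 21.2 RPKM of cathepsin transcripts (SD, n = 2), against 860 ± 41 RPKM in TBX3iso1 and 809 ± 53.2 RPKM in TBX3iso2 cells. This sum is a description that *CTSD* dominates: it made up 81.4% of the sum in EV, 62.1% with TBX3iso1 and 60.03% with TBX3iso2. Among all genes *CTSD* moved from rank 14 to ranks between 69 and 79 in the isoform libraries. Without *CTSD* the other 9 genes added to 257 ± 1.97 RPKM (SD, n = 2) in EV cells, against 326 ± 18.6 RPKM in TBX3iso1 and 323 ± 16.4 RPKM in TBX3iso2 cells. That higher sum was made by *CTSZ*: without it and *CTSD* the remaining 8 genes added to 148 ± 1.11 RPKM (SD, n = 2) in EV, against 131 ± 4.2 RPKM in TBX3iso1 and 121 ± 3.72 RPKM in TBX3iso2 cells. *CTSZ* grew from 7.87% and 7.95% of the sum in the EV libraries to between 22.2% and 25.0% in the others.

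**Figure D3:**
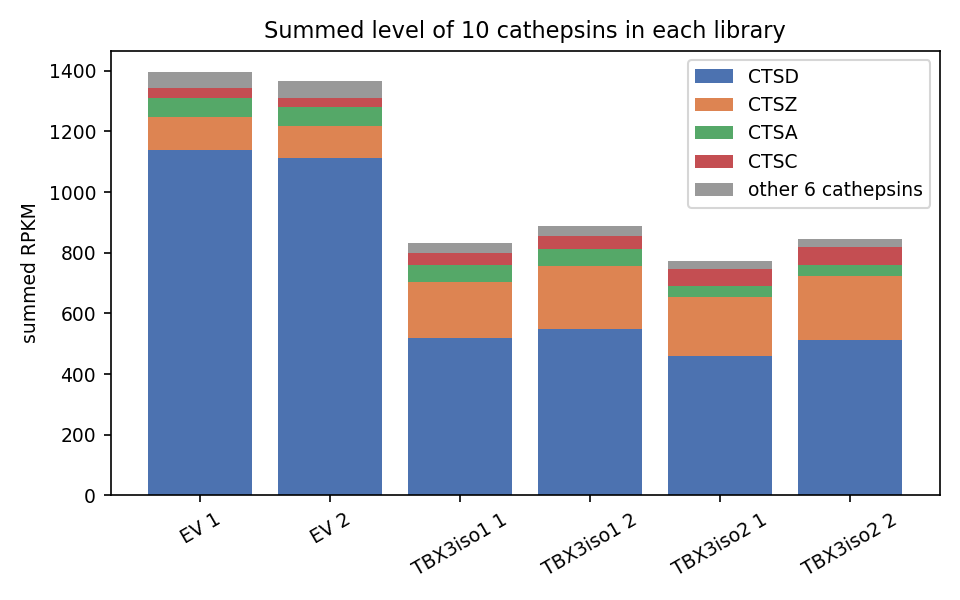
Summed RPKM of the 10 cathepsins in each library, as stacked bars from 0. The bars of the 2 EV libraries reach 1396 and 1366 RPKM, and those of the isoforms 771 to 889 RPKM. The *CTSD* part shrinks most and the *CTSZ* part grows most, while the *CTSA* part also shrinks and the *CTSC* part also grows.

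The other genes of the lysosome were read from lists in the same fit, against the shares of all genes given above, 21.5% called with TBX3iso1 (14.1% lower) and 21.2% with TBX3iso2 (12.3% lower). Of 5 further lysosomal peptidases tested, 2 fell with TBX3iso1 (40%) and 3 with TBX3iso2 (60%), and 0 rose, with medians of -0.55 and -1.04. *SCPEP1*, a serine carboxypeptidase of the same family as *CTSA*, fell from 51 and 49.9 RPKM in EV to 20.6 and 23.1 RPKM with TBX3iso1 and 21.7 and 21.2 RPKM with TBX3iso2. *TPP1*, a tripeptidyl peptidase, had log2 fold changes of -0.91 and -1.09, and *DPP7* of -0.55 and -1.04. The first is under the fold threshold, which it passed under quantile normalization (-0.59), without the first EV library (-0.61) or without the second TBX3iso1 library (-0.61). *LGMN*, the asparaginyl endopeptidase that processes several cathepsin precursors, was 18.3 and 18.9 RPKM in EV, 19.2 and 19.8 RPKM in TBX3iso1 and 14.3 and 15.8 RPKM in TBX3iso2 libraries, and was not called in any comparison.

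Of 32 lysosomal glycosidases, lipases, sulfatases and activator proteins tested, 7 fell and 0 rose with TBX3iso1 (21.9%), and 10 fell and 1 rose with TBX3iso2 (34.4%). The first share is near the 21.5% of all genes called in either direction, but all 7 were lower, where 14.1% of all genes were lower. The medians were -0.30 and -0.48. *PSAP*, the precursor of the saposins that *CTSD* cleaves, fell from 167 to 175 RPKM in EV to 103 to 106 RPKM with TBX3iso1 and 94.1 to 104 RPKM with TBX3iso2. *GM2A*, the activator of ganglioside breakdown, fell with both isoforms (-1.37 and -1.22). *GAA*, the acid glucosidase of glycogen, fell with TBX3iso1 (-1.33). With TBX3iso2 it was less far below EV (-0.35, limma adjusted p = 0.0283), under the fold threshold. The isoforms differed by 0.98 (limma adjusted p = 0.0015, but 0.0721 in the linear model on unlogged RPKM). Of 17 lysosomal membrane proteins, 3 fell with TBX3iso1 (17.6%, near the 14.1% of all genes that were lower) and 5 with TBX3iso2 (29.4%, against 12.3%) and 0 rose, with medians of -0.30 and -0.44. Among them were the sialic acid transporter *SLC17A5* (-0.33, not called, and -1.18) and *CLN3* (-0.80 and -0.88).

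Of 11 genes of mannose 6-phosphate tagging and sorting, 2 fell with TBX3iso1 (18.2%, near the 14.1% of all genes that were lower) and 3 with TBX3iso2 (27.3%, against 12.3%) and 0 rose, with medians of -0.34 and -0.26. *SORT1*, encoding the sorting receptor sortilin, fell from 24.1 and 24.2 RPKM in EV to 9.34 and 8.71 RPKM with TBX3iso1 and 11.5 and 9.71 RPKM with TBX3iso2. *IGF2R*, the larger mannose 6-phosphate receptor, had values of -0.60 and -0.83 on the log2 scale. The first of these is barely past the fold threshold, and the call was lost with 1 RPKM added, under either scaling, in the linear model on unlogged RPKM, without the filter (adjusted p = 0.0799), and without either EV library or the second TBX3iso1 library (adjusted p = 0.075 to 0.121). The linear model also ended the call with TBX3iso2 (adjusted p = 0.0697). The smaller receptor, *M6PR*, was 55.1 and 55.2 RPKM in EV, 80.1 and 81.1 RPKM in TBX3iso1 and 50.8 and 49.6 RPKM in TBX3iso2 libraries. With TBX3iso1 it changed by 0.55 on the log2 scale, under the fold threshold except with median-ratio scaling (0.63), and it was lower with TBX3iso2 than with TBX3iso1 (-0.68). Of 17 subunits of the V-ATPase, the proton pump that acidifies the lysosome, *ATP6V1C2* fell with both isoforms (-1.49 and -1.47) and the other 16 were not called (5.88% called in each comparison with EV, below the share of all genes), with medians of -0.22 and -0.09.

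Cystatins, the inhibitors of the cysteine cathepsins, moved in both directions. Of 4 tested, 1 rose with TBX3iso1 (25%, near the 21.5% of all genes called), and 1 rose and 1 fell with TBX3iso2 (50%, against 21.2%), with medians of 0.01 and -0.19. *CSTA* rose from 0.957 and 1.11 RPKM in EV to 2.84 and 2.71 RPKM with TBX3iso1 and 3.41 and 4.18 RPKM with TBX3iso2. *CSTB* was far more abundant, at 405 and 418 RPKM in EV, 360 and 393 RPKM in TBX3iso1 and 253 and 286 RPKM in TBX3iso2 libraries, a change of -0.61 on the log2 scale with TBX3iso2 that was under the threshold with median-ratio scaling (-0.58) or without the first TBX3iso2 library (-0.53). The secreted *CST3* (0.11 and -0.24) and *CST6* (-0.08 and -0.14) were not called. For *CST6* the study reported lower levels with TBX3 overexpression, from western blots of protein, which is another measure than the RNA values here. Of other cathepsin genes, 4 were in the table and 2 were tested, with medians of 0.42 and 0.27, and *CTSV* was called, higher with TBX3iso1 (0.61). That call was lost without either EV library, without the first TBX3iso1 library (adjusted p = 0.0437 to 0.0748 over these, the lowest with a value of 0.57, under the fold threshold), with 1 RPKM added (0.43) and in the linear model on unlogged RPKM.

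**Figure D4:**
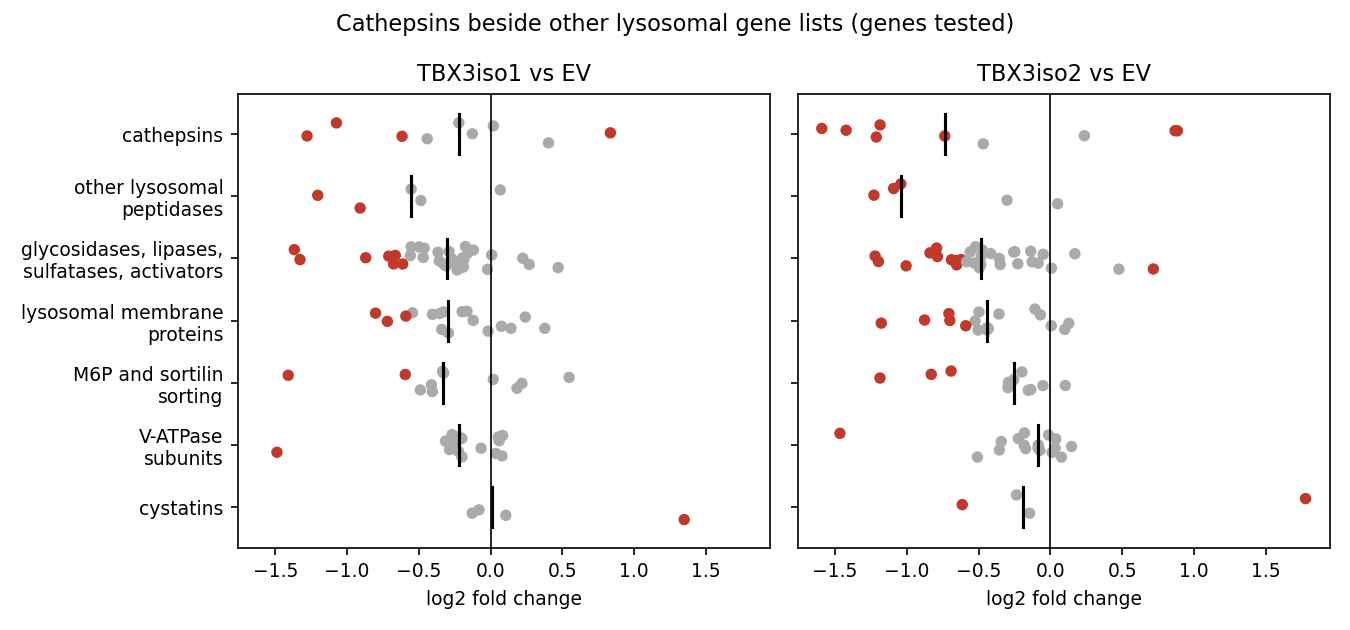
Log2 fold changes against EV of the cathepsins tested and of 6 further lists, with 1 point per gene, red for a call and a black bar for the median of a list. The medians of the cathepsins are -0.22 and -0.74, those of the other lysosomal peptidases -0.55 and -1.04, and those of the V-ATPase subunits -0.22 and -0.09.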

How the data were processed

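RNA-Seq values of 6 libraries were used, 2 for each of the lines EV, TBX3iso1 and TBX3iso2. The authors made stranded mRNA libraries, sequenced paired-end reads of 51 bases, mapped them with TopHat to the hg19 genome (Galaxy, at most 10 alignments per read) and deposited RPKM values from Partek Genomics Suite. Versions and the gene annotation are not given in the sources used here. 1 line of the table, the number of alignments, is not a gene and was left out of the tests. Columns were matched to samples by name.

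Values were analysed as log2(RPKM + 0.1) with limma 3.58.1 in R 4.3.3 (all 6 libraries, 1 mean per line, empirical Bayes with a trend, Benjamini-Hochberg over the 12805 genes tested). The thresholds are those of the study's methods, a fold change over 1.5 at an adjusted p under 0.05. The sources give no batch, and with 2 libraries per line permutation tests and outlier tests were not possible. The table holds no counts, so intervals come from the spread of the libraries. The genes named are the 10 cathepsins, up to 3 called genes of each list by size of change, and genes with a direct relation to a cathepsin, while *NEURL2*, *PLTP* and *NELFCD* were added because their exons overlap, and cell type markers were named after their values were seen. The members and lists were chosen with earlier results of these data known. Gene positions are from GENCODE v44 lifted to GRCh37 and promoters from RefSeq (GRCh38.p14). The alternatives were other pseudocounts, filters and scalings, fits without a trend, with the compared lines alone, with a replicate block, on unlogged values of RPKM, or with each library left out.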

Additional observations from a re-analysis of the deposited data

How the results depend on the processing

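The log2 fold changes of the 9 cathepsins tested were recomputed 375 times over the alternative settings and the 3 comparisons. In 357 of these the direction and the side of the thresholds were the same, in 9 a call was lost, in 4 a call was gained and in 5 the direction turned. The 5 turns were of values near 0: *CTSK* with TBX3iso1, from 0.02 to -0.17 without the first EV library and -0.07 without the first TBX3iso1 library (range -0.17 to 0.20 over the libraries left out), and *CTSZ* between the isoforms, from 0.05 to -0.0004 with median-ratio scaling, -0.0248 without the first TBX3iso1 library and -0.0135 without the second TBX3iso2 library (range -0.0248 to 0.126). The count of cathepsins called was 3 to 4 with TBX3iso1 and 7 with TBX3iso2 when 1 library was left out, and 1 to 2 between the isoforms, where the linear model on unlogged RPKM gave 0. It was 3 between the isoforms with median-ratio scaling, quantile normalization or 0.01 RPKM added, where *CTSO* joined *CTSF* and *CTSA*, and without the filter, where *CTSS* did. Without the first TBX3iso2 library the 2 called were *CTSF* and *CTSO*. Of all genes tested, 1812 in place of 2757 were called with TBX3iso1 when 1 RPKM was added. Between the isoforms 419 in place of 805 were called with 1 RPKM added, 504 with a filter at a mean of 2 RPKM, where fewer genes were tested, and 186 with the linear model. The cause of the other changes was not tested. With a replicate block the cathepsin counts were 4, 7 and 2, as without it, and the block changed no call of a cathepsin. The sources do not say that the replicate numbers pair the libraries, and differences between same-numbered libraries correlated at 0.22, 0.114 and 0.499 across genes. Scalings moved the median of all genes by under 0.1 on the log2 scale. The fits of *CTSS* with other pseudocounts or fewer libraries and no filter were added after seeing the data.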

Other observations

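The regulators of lysosomal genes and of nutrient sensing at the lysosome were read in a list of 19 genes, of which 18 were tested. The list also held the glycoprotein *GPNMB*, which is counted among the falls with each isoform. With TBX3iso1, 2 rose and 3 fell, and with TBX3iso2 0 rose and 3 fell, with medians of -0.24 and -0.12. These are 27.8% and 16.7% of the list, around the 21.5% and 21.2% of all genes called. *TFEB* was 3.40 and 2.97 RPKM in EV, 4.22 and 3.84 RPKM with TBX3iso1 and 2.77 and 3.00 RPKM with TBX3iso2, and *TFE3* was between 14.2 and 15.8 RPKM in all 6 libraries, neither of them called in any comparison. *MITF*, under 1.3 RPKM in all libraries, was higher with TBX3iso2 than with TBX3iso1 (1.01 on the log2 scale), a call that was lost with 1 RPKM added (0.50) and in the linear model on unlogged RPKM (adjusted p = 0.101). *GPNMB*, a lysosomal glycoprotein, had the largest change of the list, from 11.3 and 11.5 RPKM in EV to 2.39 and 2.51 RPKM with TBX3iso1 and 1.55 and 1.34 RPKM with TBX3iso2.

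Genes of antigen presentation by MHC class II were examined in a list of 12, of which 6 were tested. It held class II genes, the invariant chain and *CIITA*, the transactivator of class II genes. *CIITA* was called higher with TBX3iso2 (1.19 on the log2 scale) and not with TBX3iso1 (0.12). With TBX3iso1 2 rose and with TBX3iso2 4 rose, and 0 fell, with medians of 0.33 and 1.22. These are 33.3% and 66.7% of the 6, where 7.46% and 8.94% of all genes tested were higher. *HLA-DPA1*, counted as higher with both isoforms, was at 0.305 and 0.280 RPKM in EV. It passed the filter only through the isoform libraries (1.23 and 1.20 RPKM with TBX3iso1, 1.00 and 1.17 RPKM with TBX3iso2). Both shares therefore depend in part on the filter. *CD74*, the invariant chain that *CTSS* cleaves, was 29.4 and 29.1 RPKM in EV, 40.6 and 44.8 RPKM with TBX3iso1 and 76.9 and 80.5 RPKM with TBX3iso2, so its order over the lines was not that of *CTSS*. Of 10 granule serine proteases that *CTSC* activates in leukocytes, 5 were in the table and 0 had a mean of 0.5 RPKM, so none was tested. *CST7*, an inhibitor known to act on cathepsin C, was noticed after its values were seen: it was listed at 0 in the 4 EV and TBX3iso1 libraries and at 1.26 and 1.72 RPKM with TBX3iso2, and its mean fell short of the filter.

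By Pearson's r of log2 values over the 6 libraries, the genes whose pattern was most like that of *CTSF* were *BST2* (0.999), *TMED2* (0.999) and *CD24* (0.998), and those most like *CTSZ* were *VOPP1* (0.9995), *RPP25* (0.999) and *CCNE1* (0.999). These are descriptions over 3 lines of 2 libraries each, which share their depth and their line. An r above 0.99 was reached by 27 genes for *CTSF* and 123 for *CTSZ*. The measure ignores size: *BST2* had log2 fold changes of -1.24 and -4.39, and *TMED2* of -0.05 and -0.16.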
